A study of Mus musculus with 6 samples.

Results

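The methyl-group and creatine enzymes are 9 genes of the methionine cycle, creatine synthesis and transsulfuration: Mat1a, Mat2a, Gnmt, Ahcy, Mtr, Gatm, Gamt, Cbs and Cth. They were taken by gene symbol, and all 9 were among the 36333 genes of the count table. Libraries came from pancreas of wild-type (WT) mice that received either saline or cerulein by intraperitoneal injection, with 3 libraries in each group. Cerulein, an analogue of the gut hormone cholecystokinin that overstimulates acinar cells, was given 10 times in a volume of 200 µl at 200 µg/kg/h, and RNA was taken when the last injection was done. The labels give no age, sex or substrain, and do not say whether libraries came from separate mice, so p-values measure the spread between these libraries.

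S-adenosylmethionine, the methyl donor of the cell, is made from methionine and ATP by methionine adenosyltransferase. Methyltransferases use it and leave S-adenosylhomocysteine, which is split to homocysteine and then either remethylated to methionine or passed to cysteine by transsulfuration. Creatine synthesis starts with the transfer of an amidino group from arginine to glycine and ends with a methylation by S-adenosylmethionine. The exocrine pancreas, like liver and kidney, is known for high levels of glycine N-methyltransferase and of the first enzyme of creatine synthesis.

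Promoters of Gatm, Gnmt and Mat2a are shown because these genes had the steepest falls and the only rise among the 9. Each line gives the 250 bases before the transcription start on the gene's own strand, 5′ to 3′, from RefSeq on GRCm38.p6. Capitals mark the E-box form CACCTG and the CCAAT box, on either strand (read as CAGGTG and ATTGG on the other). The E-box form CACCTG is known as part of the site bound by the acinar transcription complex PTF1. The Gnmt stretch is chr17:46729166-46729415, that of Gatm chr2:122611278-122611527 and that of Mat2a chr6:72439557-72439806, all on the minus strand. The start used in RefSeq's promoter table for Gnmt lies inside the gene's annotated span, so the last bases of its stretch are within that span.
Gnmt: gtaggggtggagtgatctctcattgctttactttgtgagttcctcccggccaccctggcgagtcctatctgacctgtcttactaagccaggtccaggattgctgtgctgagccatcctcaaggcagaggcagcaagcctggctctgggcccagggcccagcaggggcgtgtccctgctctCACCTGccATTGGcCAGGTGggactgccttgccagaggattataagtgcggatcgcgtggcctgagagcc
Gatm: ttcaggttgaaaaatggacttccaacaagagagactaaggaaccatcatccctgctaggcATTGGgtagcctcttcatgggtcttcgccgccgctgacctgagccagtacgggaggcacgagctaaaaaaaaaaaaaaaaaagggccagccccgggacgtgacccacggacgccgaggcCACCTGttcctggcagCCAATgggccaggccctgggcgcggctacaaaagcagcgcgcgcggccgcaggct
Mat2a: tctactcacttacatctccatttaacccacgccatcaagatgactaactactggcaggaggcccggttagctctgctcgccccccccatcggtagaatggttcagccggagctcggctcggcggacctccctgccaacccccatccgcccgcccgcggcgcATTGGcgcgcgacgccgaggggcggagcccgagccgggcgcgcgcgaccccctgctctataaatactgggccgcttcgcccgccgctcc

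The motifs were picked after these letters were seen. A CACCTG on the gene strand stood 70 to 65 bases before the start of Gnmt and 71 to 66 bases before that of Gatm. The Gnmt promoter held it again on the other strand, at 56 to 51 bases. Counted from the end of the annotated Gnmt span at 46729211, both Gnmt matches lie closer, and the likeness in position to Gatm is lost. Of the 7 members with a promoter in the reference, which are all except Cth and Mat1a, only these 2 held CACCTG on either strand, against 17.2% of 32851 promoters of the same length. A CCAAT box on either strand was found in 6 of the 7, all but Gamt, against 33.8% of all promoters. The E-box form CACGTG was found in Cbs alone, against 6.02%. Neither the AP-1 site TGACTCA nor the stress-response core TGATGCAA was found in any of the 7, against 4.46% and 0.791% of all promoters. A match is a description of the letters and not evidence of binding.

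Total counts lay between 5335117 and 7610775 per library. In raw counts saline replicate 1 stood apart from the other saline libraries. Its counts differed from those of saline replicates 2 and 3 by a chi-square of 46.2 and 38.7 per degree of freedom, against 8.60 between the latter and 8.03 to 14.5 between cerulein libraries. Digestive enzyme genes took 45.7% of its reads, against 59.0% and 59.8% in the other saline libraries and 29.2% to 33.2% after cerulein. In a principal component analysis of log2 CPM, saline replicates 1, 2 and 3 lay at -61.6, -80.4 and -76.3 on the first component. On the second they lay at 38.7, -41.7 and 7.44, with saline replicates 1 and 2 furthest apart. The 12 acinar markers were all detected, which fits the labelled tissue. After cerulein 10 of them were called lower and 1 higher, against 27.1% and 28.7% of all genes tested. The 1 called higher was Ptf1a, of the PTF1 complex, at 1.38 ± 0.24 on the log2 scale (SE, adjusted p = 3.41e-04, edgeR). The acinar marker Rbpjl was called lower, at -2.89 ± 0.22. Their part in the falls of Gnmt and Gatm was not tested. A change in a gene of acinar cells may reflect fewer such cells or less of the RNA per cell. These cannot be told apart in tissue. Genes were tested with edgeR's quasi-likelihood test over 12441 genes, and a gene is called at an adjusted p (Benjamini-Hochberg) under 0.05. Values are CPM, with library sizes scaled by TMM, and where all libraries are given they stand in the order of replicates 1, 2 and 3.

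After cerulein, 7 of the 9 enzyme genes were called lower, 1 was called higher and 1 was not called. All 9 passed the filter on low counts. Among all genes tested, 27.1% were called lower, 28.7% higher and 55.8% in either direction. The median log2 fold change was -1.62 over the 9 genes and -9.14e-04 over all genes tested. A fall of at least 2-fold was called for 6 of the 9, against 17.7% of all genes. The groups did not overlap for 8 of the 9 genes, against 63.0% of all genes. The 9 genes were chosen with earlier results of these data known, so these counts describe them and do not test the pathway. Without saline replicate 1, 7 of the 9 genes were called lower and 1 higher. With libraries scaled by total count alone, Gnmt, Gatm, Ahcy and Mat1a were called lower, Mat2a higher, and Gamt, Cbs and Mtr lost their calls. That scaling moved the median of all genes by 0.563 on the log2 scale and gave 5181 genes higher and 1449 lower, against 3574 and 3373 with TMM, while upper-quartile factors gave 2895 and 4190.

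**Figure D1:**
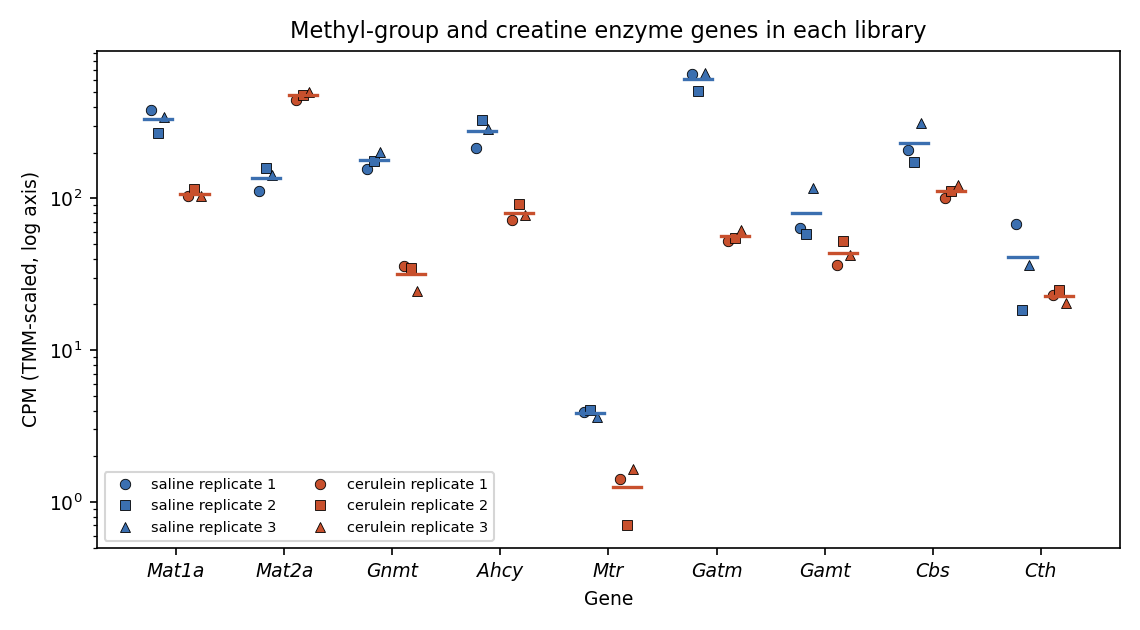
TMM-scaled CPM on a log axis for each gene in each library, with saline in blue, cerulein in red and a line at the group mean. Mat2a is the one gene whose cerulein libraries all lie above its saline libraries, Cth is the one gene whose groups overlap, and Gatm has the largest gap, from 506 CPM in the lowest saline library to 61.6 CPM in the highest cerulein library.

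Of the 9 genes, Gatm had the largest change. It encodes glycine amidinotransferase, the mitochondrial enzyme that makes guanidinoacetate from arginine and glycine in the first step of creatine synthesis, and lies on chromosome 2, 122594473 to 122611277 (mm10, minus strand). The saline libraries had 657, 506 and 665 CPM, and the cerulein libraries had 52.3, 55.1 and 61.6 CPM. The lowest saline library was thus far above the highest cerulein library. The fall was 3.43 ± 0.20 on the log2 scale (SE, n = 3 each), or 10.8-fold (adjusted p = 2.97e-08, edgeR). Of all genes tested, 1.17% had a lower log2 fold change.

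Gamt encodes guanidinoacetate N-methyltransferase, which finishes creatine synthesis with a methyl group from S-adenosylmethionine (chromosome 10, 80258151 to 80261025, minus strand). Its CPM was 63.4, 58.6 and 117 in saline and 36.2, 52.1 and 42.3 in cerulein. The groups did not overlap, but saline replicate 2 and cerulein replicate 2 came close, and saline replicate 3 was well above the others of its group. The log2 fold change was -0.87 ± 0.26 (SE, adjusted p = 0.0170, edgeR). It was -0.50 without saline replicate 3, and the call was lost without cerulein replicate 1 (-0.73, adjusted p = 0.0637) or cerulein replicate 3 (-0.83, adjusted p = 0.0541).

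Within each library the count of Gatm was set against that of Gamt, which takes the scaling of libraries out. The log2 ratio was 2.99 ± 0.45 in saline and 0.38 ± 0.26 in cerulein (SD, n = 3 each). The difference of -2.61 is a 6.11-fold shift between both steps, larger than the spread of either group (exact permutation test, two-sided p = 0.1, adjusted p = 0.117 over 7 such comparisons). With 3 against 3 libraries this test cannot give a p below 0.1.

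Gnmt encodes glycine N-methyltransferase, an abundant cytosolic enzyme that methylates glycine to sarcosine and so uses up surplus S-adenosylmethionine (chromosome 17, 46725664 to 46729211, minus strand). Its CPM was 156, 176 and 201 in saline and 35.9, 35 and 24.4 in cerulein. Every saline library was more than 4 times as high as every cerulein library. The fall was 2.48 ± 0.19 on the log2 scale, or 5.58-fold (SE, adjusted p = 2.65e-07, edgeR), and 3.10% of all genes had a lower log2 fold change.

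Both genes were also lower in every cerulein library against the summed reads of the digestive enzyme genes. The log2 ratio of Gatm to the summed counts of 20 digestive enzyme genes was -10.1 ± 0.64 in saline and -12.1 ± 0.25 in cerulein (SD, n = 3 each), a 4.05-fold lower ratio. For Gnmt it went from -11.9 ± 0.36 to -13.0 ± 0.28, or 2.13-fold. The libraries of the groups did not overlap in either ratio (exact permutation test, two-sided p = 0.1 for each, adjusted p = 0.117). The 20 enzyme genes themselves had a median log2 fold change of -2.01, with 19 called lower and none higher. The sum is weighted to the most abundant of them, and single enzyme genes differed: 2 of the 20 had a lower log2 fold change than Gatm and 5 a lower one than Gnmt.

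Ahcy encodes S-adenosylhomocysteine hydrolase, which removes the product that inhibits methyltransferases (chromosome 2, 155059310 to 155074497, minus strand). Its CPM was 215, 328 and 285 in saline and 72.3, 91.7 and 77.3 in cerulein. The groups were well apart. The fall was 1.78 ± 0.19 on the log2 scale (SE, adjusted p = 6.14e-06, edgeR), or 3.42-fold. The log2 ratio of Gnmt to Ahcy counts was -0.62 ± 0.24 in saline and -1.35 ± 0.33 in cerulein (SD, n = 3 each), a 1.66-fold lower ratio (exact permutation test, two-sided p = 0.1, adjusted p = 0.117). The nearest libraries of the groups, saline replicate 2 at -0.89 and cerulein replicate 1 at -1.01, differed little.

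The genes for the catalytic subunits of methionine adenosyltransferase changed in opposite directions. Mat1a, the form typical of adult liver and also expressed in exocrine pancreas, lies on chromosome 14, 41105012 to 41124428 (plus strand). Its CPM was 382, 268 and 345 in saline and 103, 116 and 103 in cerulein. The cerulein libraries were close together and all below the saline libraries. The fall was 1.63 ± 0.18 on the log2 scale (SE, adjusted p = 7.66e-06, edgeR), or 3.09-fold.

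Mat2a, the form found in most tissues and in dividing cells, lies on chromosome 6, 72432796 to 72439556 (minus strand). Its CPM was 112, 158 and 141 in saline and 446, 482 and 500 in cerulein. Every cerulein library was above every saline library. The rise was 1.80 ± 0.19 on the log2 scale (SE, adjusted p = 3.77e-06, edgeR), or 3.48-fold, and 92.0% of all genes had a lower log2 fold change. Mat2b, which encodes the regulatory subunit that binds the Mat2a product, had a log2 fold change of -0.41 ± 0.18 (adjusted p = 0.0614, edgeR) and was not called. It is named after its values were seen.

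The order of both forms was reversed between the groups. The log2 ratio of Mat2a to Mat1a counts was -1.77, -0.76 and -1.29 in saline and 2.11, 2.05 and 2.28 in cerulein. All saline libraries held more reads of Mat1a and all cerulein libraries more reads of Mat2a. The difference was 3.42, or 10.7-fold (exact permutation test, two-sided p = 0.1, adjusted p = 0.117). The ends of the Mat2a span overlap Ggcx and the lncRNA Particl, both on the other strand, and the strand setting of the counting is not given in the sources used here. Both overlapping genes moved the other way, Ggcx by -1.86 ± 0.27 and Particl by -2.32 ± 0.55 on the log2 scale (SE, adjusted p = 6.56e-05 and 0.00296, edgeR). Particl rests on 12, 16 and 12 counts in saline and 4, 7 and 2 in cerulein, and both are named after their values were seen.

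**Figure D2:**
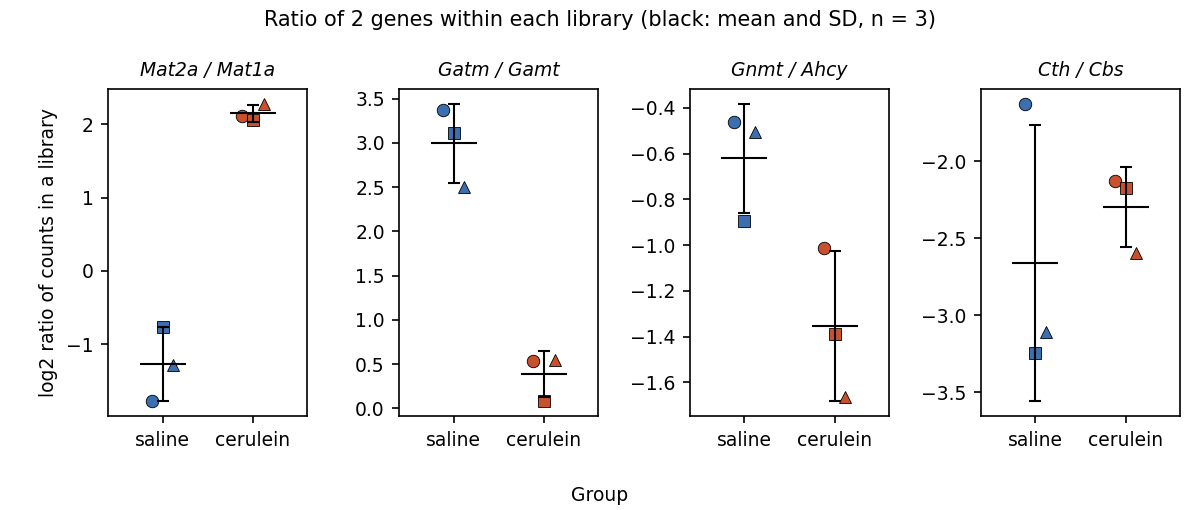
Log2 ratio of the counts of 2 genes within each library for 4 pairs, each panel with its own axis, with saline in blue and cerulein in red, circles, squares and triangles for replicates 1, 2 and 3, and the mean and SD in black. Mat2a to Mat1a goes from below 0 to above 2, Gatm to Gamt drops from 2.99 to 0.38 on average, Gnmt to Ahcy shifts less, and Cth to Cbs overlaps between groups.

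Mtr encodes methionine synthase, which remethylates homocysteine with a methyl group from folate and vitamin B12 as cofactor (chromosome 13, 12181331 to 12258199, minus strand). It was the scarcest of the 9, with 29, 18 and 14 counts in saline and 12, 6 and 13 in cerulein. The CPM was 3.93, 4.05 and 3.60 in saline and 1.42, 0.70 and 1.64 in cerulein. The groups did not overlap, and the log2 fold change was -1.62 ± 0.41 (SE, adjusted p = 0.00463, edgeR) with a 95% interval from -2.51 to -0.73.

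Cbs encodes cystathionine beta-synthase, which joins homocysteine and serine in the first step of transsulfuration (chromosome 17, 31612623 to 31637233, minus strand). Its CPM was 209, 174 and 315 in saline and 100.5, 112 and 123 in cerulein. The saline libraries differed more among themselves than the cerulein libraries, but the groups did not overlap. The fall was 1.05 ± 0.21 on the log2 scale (SE, adjusted p = 9.79e-04, edgeR), or 2.08-fold.

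Cth encodes cystathionine gamma-lyase, which releases cysteine in the next step (chromosome 3, 157894248 to 157925081, minus strand). Its CPM was 67.6, 18.2 and 36.5 in saline and 23.0, 24.9 and 20.3 in cerulein. Saline replicate 1 was the highest library and saline replicate 2 the lowest of all 6, so the groups overlapped. The log2 fold change was -0.86 ± 0.43 (SE, adjusted p = 0.127, edgeR), with a 95% interval from -1.88 to 0.15 that includes both no change and a fall of more than 3-fold. It was -0.28 without saline replicate 1 and passed at -1.21 without saline replicate 2 (adjusted p = 4.21e-04, edgeR). It also passed without a count filter, at -0.80, and in DESeq2, at -0.85. The log2 ratio of Cth to Cbs was -2.66 ± 0.90 in saline and -2.30 ± 0.26 in cerulein (SD, n = 3 each), a difference of 0.36 that was within the spread (exact permutation test, two-sided p = 0.5). That difference rested on single saline libraries: it was 0.88 without saline replicate 1, where the groups did not overlap (exact p = 0.2, the smallest possible), 0.069 without saline replicate 2 and 0.14 without saline replicate 3.

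**Figure D3:**
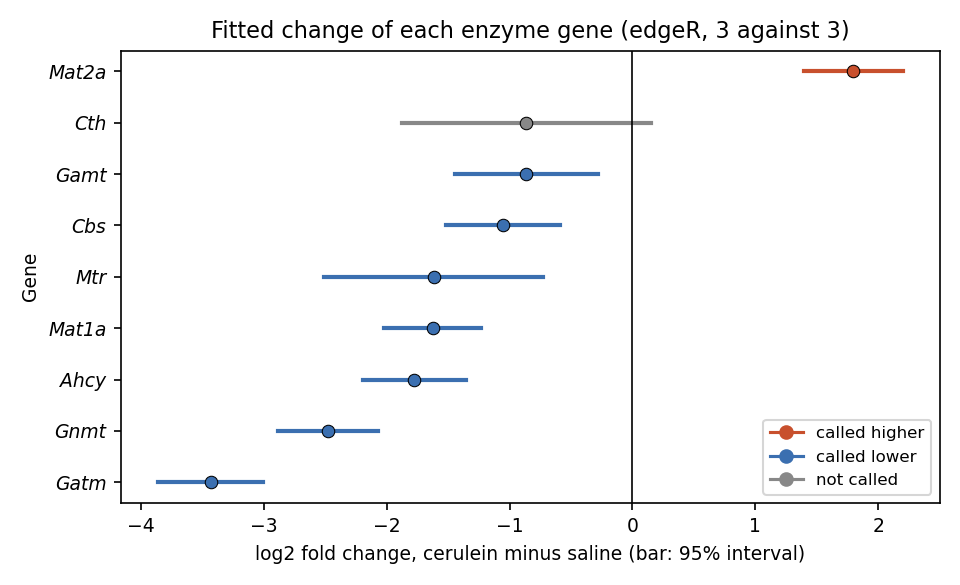
Fitted log2 fold change (cerulein minus saline) of each gene with its 95% interval, in red where called higher, blue where called lower and grey where not called. The intervals of Gatm and Gnmt lie wholly below -2, that of Mat2a lies above 1, and that of Cth crosses 0.

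Levels of different genes were compared as CPM per kilobase of exon (GENCODE M21 exon union, mean ± SD, n = 3). In saline Gatm had 203 ± 29.9 and Gnmt 147 ± 18.8, ranks 71 and 88 among 26797 genes with an exon length, so both were abundant as described. Ahcy at 98.3 ± 20.3 and Mat1a at 95.6 ± 16.8 followed, with overlapping libraries. Gamt at 55.2 ± 22.6 overlapped Mat1a on one side and Cbs, at 31.1 ± 9.84, on the other, and Mat2a at 30.6 ± 5.20 overlapped Cbs. Cth at 14.6 ± 8.94 and Mtr at 0.453 ± 0.0275 came last.

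After cerulein the order of CPM per kilobase was different. Mat2a led with 106 ± 6.16 and moved from rank 505 to rank 166. Mat1a at 31.0 ± 2.13, Gamt at 30.1 ± 5.54, Ahcy at 28.7 ± 3.60 and Gnmt at 26.3 ± 5.3 had libraries that overlapped from each to the next. Gatm, first in saline, stood at 18.8 ± 1.59 and rank 1216, below all of these in mean and overlapping only with Gnmt among them in that order. Cbs at 15 ± 1.52, Cth at 8.15 ± 0.83 and Mtr at 0.147 ± 0.0576 were apart from each other.

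The summed reads of the 9 genes made up 0.156% ± 0.0351 of counted reads in saline and 0.114% ± 0.00548 in cerulein (SD, n = 3 each; exact permutation test, two-sided p = 0.1, adjusted p = 0.117). The difference of -0.0416 percentage points was -0.0237 without saline replicate 1. The nearest libraries of the groups, saline replicate 2 at 0.1213% and cerulein replicate 3 at 0.1198%, differed little. Of the reads outside the digestive enzyme genes they made up 0.344% ± 0.0440 and 0.165% ± 0.00378. Gatm alone took 0.0363% to 0.0674% of counted reads in saline and 0.00619% to 0.00774% in cerulein. Mat2a took 0.0103% to 0.0115% in saline and 0.0541% to 0.0628% in cerulein. The largest single share among the 9 was thus that of Gatm in every saline library and that of Mat2a in every cerulein library.

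Since Mat1a, Gnmt, Cbs and Gamt are also liver genes, hepatocyte markers were examined. Their summed level was 36.3 to 55.8 CPM in saline and 8.19 to 12.3 CPM in cerulein, nearly all of it from Ttr and Cyp2e1. Albumin (Alb) was between 0.23 and 1.29 CPM in every library, and Apoa1, Apob and Cps1 were listed at 0. Kidney tubule markers, of which 4 of 8 had any count, summed to at most 6.50 CPM. The sum over neutrophil markers in saline was 217, 19.1 and 44.2 CPM, with saline replicate 1 the highest, and 49.7 to 120.3 CPM in cerulein. Cth followed the same order across saline libraries, as did Mat1a and the summed markers of monocytes and macrophages and of lymphocytes. The neutrophil sum was 49.7, 89.0 and 120.3 CPM in cerulein, and Cth, at 23.0, 24.9 and 20.3 CPM, ran in another order. The part of neutrophils in the spread of Cth was not tested. Monocyte and macrophage markers summed to 170 to 347 CPM in saline and 500.3 to 571 CPM in cerulein. Of these 8 markers 4 were called higher, against 28.7% of all genes tested. Adgre1, Csf1r, Mrc1 and C1qa were not called, at -0.87, -0.25, -0.28 and 0.085 on the log2 scale. The part of these cells in the rise of Mat2a was not tested. Duct markers were called higher for 5 of 8 and lower for 2, against 28.7% and 27.1% of all genes tested. Their sum overlapped between groups, at 783 to 1593 CPM in saline and 1382 to 1765 CPM in cerulein.

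Genes whose log2 CPM over the 6 libraries was most like that of Gatm, among 3184 well-expressed genes (mean log2 CPM 5 or more), were Mknk1, Hadha, Slc27a1 and the amylase copy Amy2a1, with Pearson's r from 0.998 to 0.999. Those most like Gnmt were Sostdc1, Idh2, Klk1b4 and Ly6e, with r from 0.996 to 0.999. These values mostly repeat the gap between the groups, which all libraries share. Near-identical copies of amylase and of the kallikrein-related Klk1b genes make the reads of Amy2a1 and Klk1b4 uncertain.

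Other genes of these pathways were described from 10 lists. Of 108 genes, 93 were tested, 34 were called lower, 22 higher and 37 were not called, with a median log2 fold change of -0.20. The shares of called genes over the whole table, given above, apply here too, and these lists were also chosen with earlier results known. With libraries scaled by total count alone, 19 were called lower and 34 higher. Of the pathway genes named below, Amt, Setd7, Prmt9, Oat, Adi1, Ass1 and Abcd4 were then no longer called. A further 7 of the 108 were listed at 0 in all libraries, which in this table can mean that a gene overlaps another, and nothing is read from them.

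**Figure D4:**
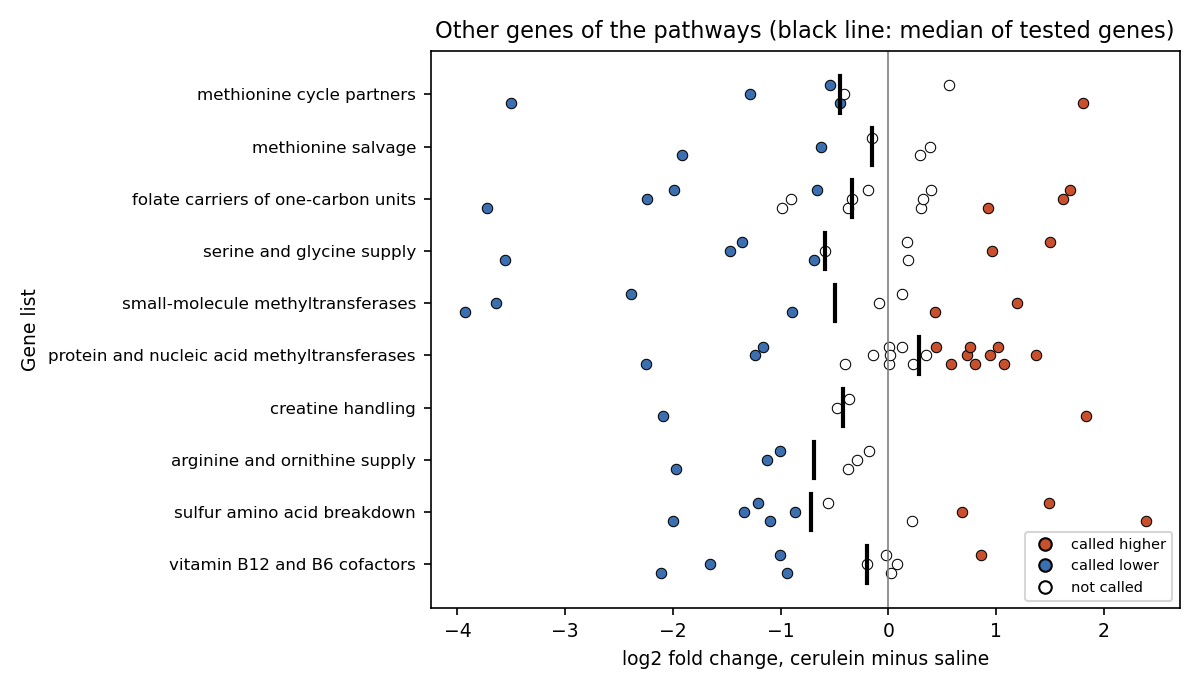
Log2 fold change (cerulein minus saline) of each tested gene in 10 pathway lists, in red where called higher, blue where called lower and white where not called, with the list median as a black line and vertical offsets only to separate points. Most lists spread to both sides of 0, with falls to below -3 and rises to above 2.

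Among 10 methionine cycle partners, 7 were tested, 4 were called lower and 1 higher. Adk encodes adenosine kinase, which clears the adenosine that Ahcy releases. Its CPM was 171, 259 and 251 in saline and 20.0, 20.7 and 19.2 in cerulein. The cerulein libraries were nearly alike, and the fall was 3.50 ± 0.20 on the log2 scale (SE, adjusted p = 2.56e-08, edgeR). Ahcyl2, a relative of Ahcy, fell by 1.28 ± 0.18. Of the 5 methionine salvage genes, Apip fell by 1.92 ± 0.37 and Adi1 by 0.63 ± 0.17. Mtap, Mri1 and Enoph1 were not called, at 0.29 ± 0.24, -0.15 ± 0.20 and 0.39 ± 0.27.

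Of 15 genes that carry one-carbon units on folate or move folate, all were tested, 4 were called lower, 3 higher and 8 were not called. The cytosolic trifunctional enzyme gene Mthfd1 had 11.0, 14.4 and 15.4 CPM in saline and 1.18, 0.94 and 0.88 CPM in cerulein. It fell by 3.73 ± 0.31 on the log2 scale (SE, adjusted p = 5.54e-07, edgeR), and the groups were more than 9-fold apart at their nearest libraries. The cerulein values of Mthfd1 rest on 10, 8 and 7 counts. Aldh1l1 and Aldh1l2, the cytosolic and mitochondrial formyltetrahydrofolate dehydrogenases, fell by 2.24 ± 0.25 and 1.99 ± 0.27. The mitochondrial enzyme genes Shmt2, for serine hydroxymethyltransferase, and Mthfd1l, for formate release, rose by 1.62 ± 0.17 and 1.69 ± 0.23.

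Serine and glycine supply had 9 of 11 genes tested, with 4 called lower and 2 higher. Psat1, an aminotransferase of serine synthesis, rose by 1.5 ± 0.26. Tdh and Gcat, which turn threonine to glycine in mice, fell by 3.55 ± 0.51 and 1.35 ± 0.20, and Amt, of the glycine cleavage system, by 1.47 ± 0.32 on the log2 scale. The CPM of Tdh was 67.0, 23.9 and 42.9 in saline and 1.66, 4.91 and 4.92 in cerulein. The groups were apart in spite of a wide spread in saline.

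Small-molecule methyltransferases had 8 of 11 genes tested, with 4 called lower and 2 higher. Hnmt, which methylates histamine, Inmt, which methylates indoleamines, and As3mt, which methylates arsenic, fell by 3.93 ± 0.45, 3.64 ± 0.40 and 2.39 ± 0.44 on the log2 scale, all from levels under 20 CPM. In cerulein Hnmt had 2, 4 and 6 counts, Inmt 18, 5 and 6 and As3mt 6, 11 and 7. Of 20 protein and nucleic acid methyltransferases, 9 were called higher and 3 lower, with a median log2 fold change of 0.29. Lcmt1, which methylates protein phosphatase 2A, fell by 2.25 ± 0.25, the lysine methyltransferase Setd7 by 1.16 ± 0.16 and Prmt9 by 1.24 ± 0.25. The DNA methyltransferase Dnmt3a rose by 1.08 ± 0.15. Mettl16, an RNA methyltransferase known to act on the Mat2a transcript, rose by 1.02 ± 0.20, from 11.6, 13.7 and 9.26 CPM in saline to 20.8, 28.0 and 21.6 CPM in cerulein (adjusted p = 9.05e-04, edgeR).

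Of 6 genes that move or phosphorylate creatine, 4 were tested. Slc6a8, the creatine importer, had 13, 12.6 and 9.77 CPM in saline and 41.7, 44.1 and 41.8 CPM in cerulein. It rose by 1.84 ± 0.17 on the log2 scale (SE, adjusted p = 1.66e-06, edgeR), with cerulein libraries close together. Slc16a12, a creatine exporter, fell by 2.09 ± 0.25, from 13.1, 20.0 and 21.6 CPM in saline to 4.62, 3.98 and 4.04 CPM in cerulein (adjusted p = 1.31e-05, edgeR). The importer and the exporter thus changed in opposite directions. The creatine kinase genes were scarce. Ckb and Ckmt1 had log2 fold changes of -0.48 ± 0.51 and -0.37 ± 0.39 and were not called, and Ckm and Ckmt2 were too low to test.

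Arginine and ornithine supply had 6 of 11 genes tested, with 3 called lower and none higher. Arg2, the mitochondrial arginase, fell by 1.97 ± 0.33, and Oat, ornithine aminotransferase, which uses the ornithine that Gatm releases, by 1.01 ± 0.16. Ass1, an enzyme of arginine synthesis, was called at -1.13 ± 0.40 from counts near the filter (adjusted p = 0.0292, edgeR). That call was lost without saline replicate 1 or any cerulein replicate, at -0.89, -0.99, -1.15 and -1.21, without a count filter and in DESeq2.

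Sulfur amino acid breakdown had all 10 genes tested, with 5 called lower and 3 higher. Got1, the cytosolic aspartate aminotransferase, rose by 2.39 ± 0.19, from 11.5 to 17.5 CPM in saline to 64.4 to 86.8 CPM in cerulein (adjusted p = 4.19e-07, edgeR). Ethe1, a mitochondrial persulfide dioxygenase, rose by 1.49 ± 0.25. Kyat1, which can act on cysteine conjugates, and the sulfurtransferase genes Mpst and Tst fell by 2.0 ± 0.24, 1.34 ± 0.22 and 1.21 ± 0.21. Of 9 vitamin B12 and B6 genes, 4 were called lower and 1 higher. Cd320, the cell receptor for vitamin B12 bound to transcobalamin, fell by 2.11 ± 0.28, and Mmachc, which processes the vitamin for Mtr, by 1.65 ± 0.29. Abcd4, a lysosomal vitamin B12 transporter, was called at -1.01 ± 0.38, and lost its call (adjusted p between 0.0507 and 0.129, edgeR) when any library other than saline replicate 2 was left out, and also without a count filter (0.0971) and in DESeq2 (0.0876).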

How the data were processed

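RNA of 6 mouse pancreas samples was measured. The deposited table holds raw counts, with a column for each library. Per the submitters' processing notes, HTSeq, STAR and Trimmomatic were used with mm10, and no version is given. The annotation and strand setting are not stated. Counts were used unchanged. edgeR 4.0.16 in R 4.3.3 was run with filterByExpr (minimum count 10, minimum total 15), TMM factors from 0.719 to 1.30 and robust quasi-likelihood F tests, two-sided. Standard errors and 95% intervals were derived from the F statistics. The fit was also run on simulated counts in which few genes changed, evenly up and down. That setting differs from these data, where 55.8% of genes were called, and cannot test the library scaling. Within-library log2 ratios used a pseudocount of 0.5 and an exact permutation test. Positions and promoters came from RefSeq (GRCm38.p6), and Sqor and Plpbp were matched by older symbols. The members and lists were chosen with earlier results of these data known. Named genes are the 9 members, all genes of lists of at most 6, and in longer lists up to 5 called genes with the smallest p, a log2 change of at least 1 and groups that do not overlap. Some genes that this rule names are not reported here. Alternatives covered scaling, count filter, limma 3.58.1 (voom), DESeq2 1.42.0, each library left out, a replicate block, and another pseudocount and denominator.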

Additional observations from a re-analysis of the deposited data

How the results depend on the processing

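Over the 9 enzyme genes and 14 alternatives, 118 of 126 log2 fold changes stayed on the same side of the threshold, 5 lost and 3 gained a call, and none changed sign. The median over all genes shifted by -0.197 on the log2 scale with upper-quartile factors and by 0.563 with library size alone. With library size alone 1449 genes were called lower, 4 of the 9 enzyme genes were (Gnmt, Gatm, Ahcy and Mat1a), and of the pathway genes 34 were higher and 19 lower. Gamt, Cbs and Mtr then had -0.28, -0.47 and -1.05 and were not called. Of the named pathway genes, Amt, Setd7, Prmt9, Oat, Adi1, Ass1 and Abcd4 also lost their calls, while Mtap and Enoph1 gained one. Mri1, Ckb and Ckmt1, not called in either fit, changed sign with library size alone, to 0.44, 0.071 and 0.20, as did Mri1 without saline replicate 2 and Ckmt1 without saline replicate 3. Without each library in turn Mri1 lay between -0.35 and 0.040 and Ckmt1 between -0.65 and 0.079. Cth was called with no count filter (-0.80) and in DESeq2 (-0.85). Without each library in turn, 6 to 8 of the 9 genes were called lower and 1 higher, and Gatm lay between -3.55 and -3.37, Gnmt between -2.60 and -2.31 and Mat2a between 1.63 and 1.91. With the replicate number as a block, 3673 genes were higher and 3401 lower, 7 of the 9 genes were lower and 1 higher, and of the named genes Ass1 and Abcd4 lost their calls. Deviations of same-numbered libraries correlated at 0.19, 0.22 and -0.15, and those of differently numbered libraries at -0.29 to 0.088. With 3 libraries in each group this cannot decide whether the numbers pair the libraries, and the labels do not say. Low counts limit Mtr, with 6 to 29 counts per library. Low counts in cerulein also limit the size of the falls of Mthfd1, Hnmt, Inmt and As3mt.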
